A study of Mus musculus with 4 samples.

Results

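*Zbtb16*, *Nfil3*, *Tbx21*, *Eomes*, *Rora* and *Tox* encode transcription factors of natural killer (NK) cells and other innate lymphoid cells, and these 6 genes were followed in *Ebf1*-/- cells that had received a *Mir195* virus or an EMPTY virus. They were chosen by name from the 31896 gene names of the array, and every probe annotated to one of them was taken, which gave 7 of the 39429 probes of the array, 2 of them for *Eomes* and 1 for each other gene. The cells were lineage-negative (Lin-) hematopoietic cells from the mid-gestation fetal liver (FL) of *Ebf1*-/- mice, so the EMPTY cells lacked EBF1, the factor that commits lymphoid progenitors to the B lineage, as much as the Mir195 cells did. Both groups were cultured with SCF, IL-7 and Flt3-ligand at 10 ng/mL each. The EMPTY virus was the retroviral vector MDH1-PGK-GFP, and the Mir195 virus was the same vector carrying a segment around *Mir195* that was cloned from the human leukemia line RS4;11. The methods describe culture of such cells on OP9, a mouse stromal line, and name no sort for the array samples, so the RNA may come from uninfected, stromal and other cells too. Each group had 2 arrays, called EMPTY 1, EMPTY 2, Mir195 1 and Mir195 2 after the replicate numbers of the labels.

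Innate lymphoid cells arise from the common lymphoid progenitors that also give B and T cells. PLZF, the product of *Zbtb16*, marks a precursor of the helper-like innate lymphoid cells. NFIL3 and TOX act early, in the progenitors of all innate lymphoid lineages, and T-bet (*Tbx21*) and EOMES are related T-box factors that drive NK cell maturation and the genes of killing and interferon-gamma. RORα (*Rora*), a nuclear receptor, is needed for group 2 cells and is also used by group 3 cells. NFIL3 and RORα also act in the circadian clock of most cells.

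The miRNA expressed by the Mir195 virus recognizes mRNAs through its seed, bases 2 to 8 counted from the 5′ end. The mouse miR-195a-5p and 3 of the mouse miRNAs with the same seed are given below in RNA letters with the seed in capitals, as RefSeq lists them on GRCm38.p6, because any of them could pair with the same seed matches.
mmu-miR-195a-5p: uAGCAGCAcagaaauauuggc
mmu-miR-497a-5p: cAGCAGCAcacugugguuugua
mmu-miR-16-5p: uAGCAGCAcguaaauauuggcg
mmu-miR-15a-5p: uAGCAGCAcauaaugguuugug
The miR-195a-5p sequence lies at chr11:70235062-70235082 on the plus strand. In all, 10 mature mouse miRNAs of the table share this seed. *Tbx21* was the 1 gene of the 6 on the list of predicted mouse miR-195a-5p targets that the study compiled. The complement of the seed, TGCTGCT, was in 0 of the 7 member probes, which are 60 bases each, and in 0.8% of all probes. The search covered only the probe sequences, not the whole mRNAs.

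All 7 member probes were well above background on 4 of 4 arrays. None passed the test between Mir195 and EMPTY (limma with Benjamini-Hochberg adjustment over 23723 probes, threshold 0.05), and the lowest adjusted p among them was 0.639. Between the EMPTY arrays, EMPTY 1 exceeded EMPTY 2 by 0.5 log2 units or more at 4 of the 7 probes, against 3.68% of all tested probes. These were the probes of *Rora* and *Tbx21* and both probes of *Eomes*. It was known beforehand that 1 EMPTY array might be higher for these genes, and the mark of 0.5 was not planned. The counts of EMPTY 1 against EMPTY 2 therefore only describe the probes. With normexp background correction, the dimmer *Eomes* probe fell short of this mark at 0.28, and the other 3 gave 0.60 or more. EMPTY 1 was above EMPTY 2 at 5 of the 7, against 37.7%, and at the same 5 it was the highest of the 4 arrays, against 17.7%. In bulk RNA, fewer cells of a type and less RNA per cell cannot be told apart.

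**Figure D1:**
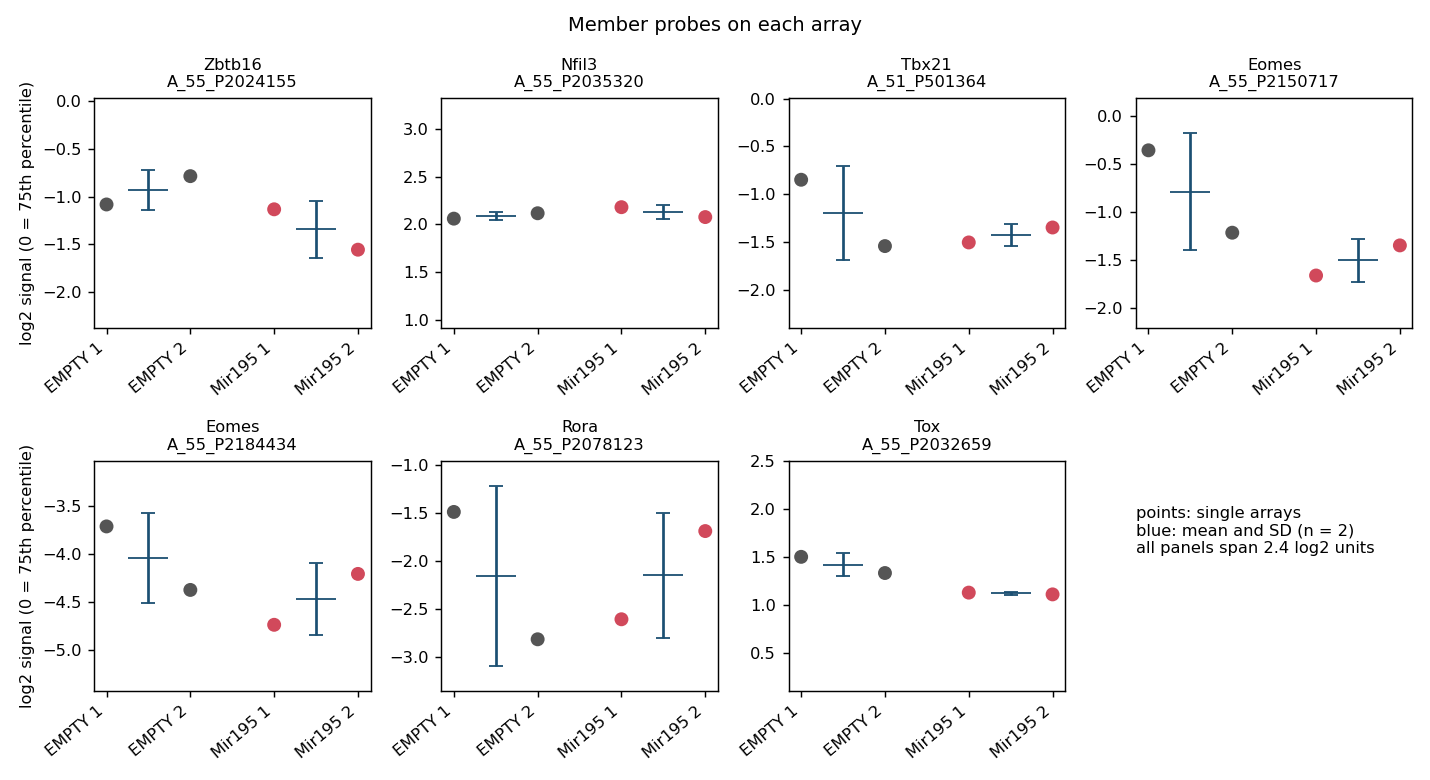
Normalized log2 signal (y axis, 0 at the 75th percentile of the array) of the 7 member probes on the 4 arrays (x axis), with the group mean and SD in blue and the same span of values in each panel. EMPTY 1 lies well above EMPTY 2 for Tbx21, both Eomes probes and Rora, and Mir195 2 also lies high for Rora.

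The values are log2 signals after subtraction of the 75th percentile of all probes on the same array, so that 0 is the 75th percentile itself. Because probes bind with different strength, a level was compared only between arrays and never between probes. Of the 23723 tested probes, 0 (0%) were called at an adjusted p under 0.05 and 0 of the 7 member probes. At an unadjusted p under 0.05, 497 probes (2.1%) were lower and 1482 (6.25%) higher with Mir195, and again 0 member probes were among them. The count of called probes turned on single arrays, being 900 without Mir195 replicate 1 and 3 without Mir195 replicate 2, none of them a member. The labels do not say that the replicates were separate cultures or animals, so the p-values measure only the spread between these samples, which may be technical. Over all tested probes the closest arrays were EMPTY 2 and Mir195 1, with a median absolute difference of 0.095, against 0.147 within EMPTY and 0.194 within Mir195. The titles of the samples name no slide or position for the arrays. If the arrays lay on 1 slide in the order of their labels, EMPTY before Mir195, position and virus cannot be told apart.

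Among the 3 regulators of early innate lymphoid progenitors, *Zbtb16* (chr9:48651797-48836225 in GRCm38.p6) was measured at -1.08 on EMPTY 1, -0.79 on EMPTY 2, -1.13 on Mir195 1 and -1.55 on Mir195 2. Both Mir195 arrays lay below both EMPTY arrays, narrowly for Mir195 1 and EMPTY 1, and in contrast to the T-box genes EMPTY 2 was the highest. The mean was -0.94 ± 0.21 (SD, n = 2) with EMPTY and -1.34 ± 0.30 (SD, n = 2) with Mir195. The log2 fold change was -0.41 with a standard error (SE) of 0.20 and a 95% interval from -0.94 to 0.12, and it did not pass the test (limma adjusted p = 0.702). Its direction was the same in all 14 alternatives, from -0.62 to -0.20. The dim-probe filter, the variance model and the replicate block could not change this value.

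*Tox* (chr4:6686353-6991557), an HMG-box factor needed for innate lymphoid progenitors and for CD4 T cells, read 1.50 and 1.34 with EMPTY and 1.13 and 1.11 with Mir195. The groups did not overlap, and the Mir195 arrays were nearly equal. The mean was 1.42 ± 0.12 (SD, n = 2) with EMPTY and 1.12 ± 0.01 (SD, n = 2) with Mir195, a log2 fold change of -0.30 (SE 0.13) with an interval from -0.63 to 0.03. This was 1.23-fold lower with Mir195 and did not pass the test (limma adjusted p = 0.639). Leaving out each array in turn gave values from -0.38 to -0.21.

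*Nfil3* (chr13:52967209-52982878), a basic leucine zipper repressor, varied least. Its signal was 2.06 and 2.12 with EMPTY and 2.18 and 2.08 with Mir195, so the groups overlapped. The log2 fold change was 0.04 (SE 0.12) with an interval from -0.27 to 0.35 (limma adjusted p = 0.965), which leaves room for a change of either sign within these bounds. Its sign turned with scaling by the median (-0.058) and without Mir195 replicate 1 (-0.012). A probe for *Gm4125*, a locus the array annotates as similar to *Nfil3*, was well above background on 0 arrays.

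*Eomes* (chr9:118478186-118486132), the T-box factor of mature NK cells, had the largest mean difference of the 6 genes. The brighter probe, A_55_P2150717, read -0.35 on EMPTY 1, -1.21 on EMPTY 2, -1.66 on Mir195 1 and -1.35 on Mir195 2. Both Mir195 arrays lay below both EMPTY arrays, but EMPTY 2 was closer to the Mir195 arrays than to EMPTY 1. The mean was -0.78 ± 0.61 (SD, n = 2) with EMPTY and -1.50 ± 0.22 (SD, n = 2) with Mir195. The log2 fold change was -0.72 (SE 0.32, interval -1.55 to 0.11) and did not pass the test (limma adjusted p = 0.659). Leaving out EMPTY replicate 1 gave -0.29, and leaving out EMPTY replicate 2 gave -1.15.

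The other *Eomes* probe, A_55_P2184434, was dim, at 2.45 to 4.05 times the local background. It read -3.71, -4.37, -4.74 and -4.21 in the same order of arrays, so its groups overlapped, with Mir195 2 above EMPTY 2. Its log2 fold change was -0.43 (SE 0.30, interval -1.21 to 0.35; limma adjusted p = 0.821), and it was -0.098 without EMPTY replicate 1. Both probes placed EMPTY 1 highest and Mir195 1 lowest. EMPTY 1 exceeded EMPTY 2 by 0.86 at the brighter probe and by 0.66 at the dimmer one.

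*Tbx21* (chr11:97098007-97115331), the T-box factor of type 1 innate lymphoid cells and NK cells, read -0.85 on EMPTY 1 and -1.54 on EMPTY 2. It read -1.50 on Mir195 1 and -1.35 on Mir195 2. EMPTY 1 alone was high, and EMPTY 2 was the lowest of the 4 arrays. The log2 fold change was -0.23 (SE 0.26, interval -0.90 to 0.44; limma adjusted p = 0.899). It became 0.12 without EMPTY replicate 1 and -0.58 without EMPTY replicate 2. EMPTY 1 was 1.62-fold above EMPTY 2, and this difference of 0.69 was at the 98.6th percentile of the tested probes within 1 log2 unit of its mean signal.

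*Rora* (chr9:68653404-69388246) differed most between arrays and least, on average, between viruses. It read -1.49 on EMPTY 1, -2.82 on EMPTY 2, -2.61 on Mir195 1 and -1.69 on Mir195 2, as unnormalized signals of 402, 146, 148 and 286. One array of each virus was high and the other low. EMPTY 1 was 2.51-fold above EMPTY 2, a difference at the 99.8th percentile of 4475 tested probes of similar signal. The mean was -2.15 ± 0.94 (SD, n = 2) with EMPTY and -2.15 ± 0.65 (SD, n = 2) with Mir195, and the log2 fold change of 0.0047 (SE 0.54; limma adjusted p = 0.999) had an interval from -1.40 to 1.41. Leaving out 1 array at a time moved it from -0.66 without EMPTY replicate 2 to 0.67 without EMPTY replicate 1, so these arrays set no useful bound on the change of *Rora*.

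**Figure D2:**
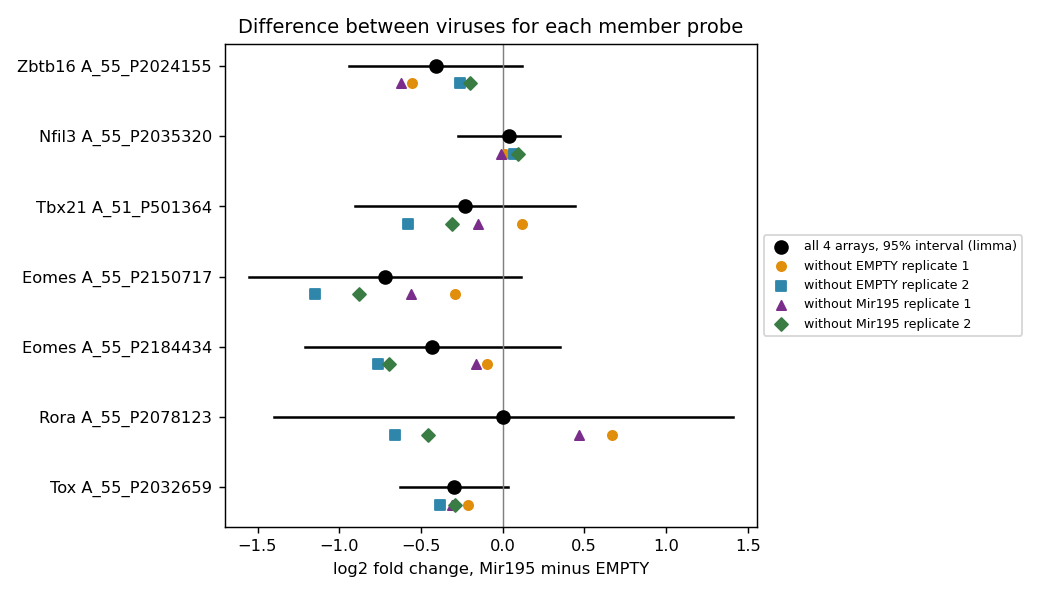
Log2 fold change, Mir195 minus EMPTY (x axis), of each member probe (y axis), with the 95% interval from limma in black and, beneath it, the value with each array left out in color. Every interval includes 0, the Tox values stay closely together below 0, and the Rora values lie on both sides of 0.

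Across the 7 member probes, 5 means were lower with Mir195, against 47% of all tested probes. At 3 probes (*Zbtb16*, the brighter *Eomes* probe and *Tox*) both Mir195 arrays lay below both EMPTY arrays, against 14.4% of all tested probes, and at 0 both lay above, against 23.4%. Without EMPTY replicate 2 the count of 3 rose to 6. The median log2 fold change was -0.30 over the member probes and 0.013 over all tested probes, and without EMPTY replicate 2 the former was -0.58. The share of all tested probes with a lower mean depended on the scaling, from 35.5% with normexp background correction to 66.9% with scaling by the median.

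The median of EMPTY 1 minus EMPTY 2 was 0.66 over the member probes and -0.06 over all tested probes. Between the Mir195 arrays the same probes moved the other way, with Mir195 1 below Mir195 2 by 0.92 for *Rora*, 0.53 and 0.31 for the dimmer and brighter *Eomes* probes and 0.15 for *Tbx21*. *Zbtb16* went against them on both axes, with EMPTY 1 below EMPTY 2 by 0.30 and Mir195 1 above Mir195 2 by 0.42. EMPTY 1 and Mir195 2 both exceeded the other arrays at 3 member probes (*Rora*, *Tbx21* and the dimmer *Eomes* probe), against 16% of all tested probes. This pattern is the one that *Rora* itself showed and was not planned, so the count only describes the probes. After each probe was centered on its own mean over the 4 arrays, the root mean square difference between members was smallest for the dimmer *Eomes* probe with *Tbx21* (0.166) and largest for *Zbtb16* with *Rora* (0.773).

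**Figure D3:**
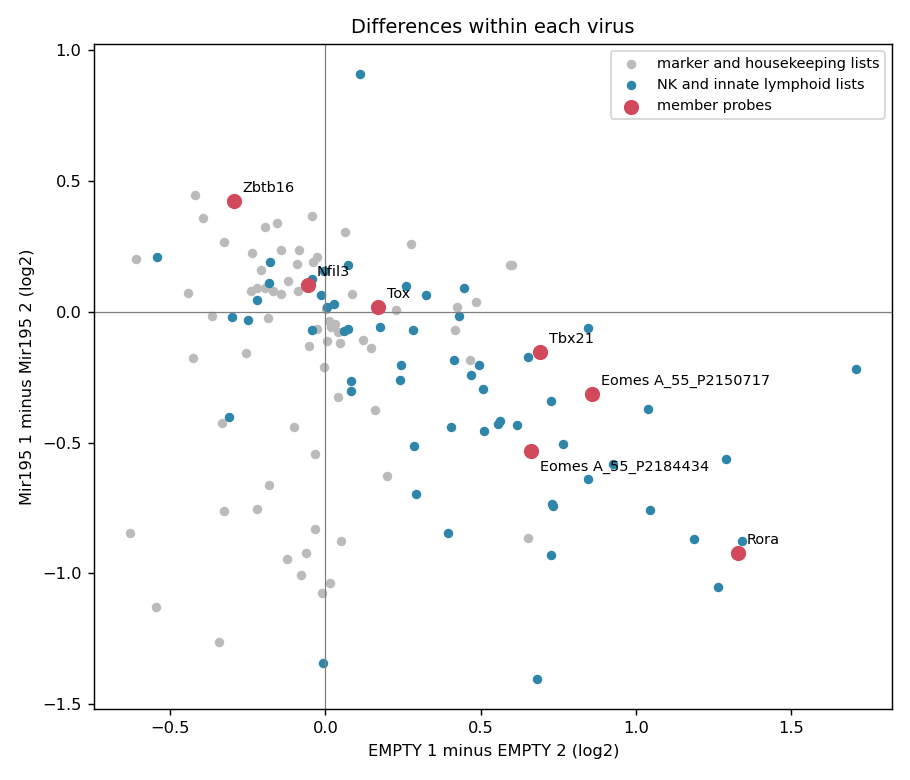
EMPTY 1 minus EMPTY 2 (x axis, log2) against Mir195 1 minus Mir195 2 (y axis, log2) for the member probes, the genes of the NK and innate lymphoid lists and the genes of the marker and housekeeping lists. Rora lies at the lower right at 1.33 and -0.92, Eomes and Tbx21 lie between it and 0, and Zbtb16 lies at the upper left.

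Other genes of NK and innate lymphoid cells were then read from lists, each gene by its brightest tested probe. None of the genes of any list was called by limma. Over all 19037 tested genes, 47.8% had a lower mean with Mir195, the share to set beside the count of each list below. Of 20 other regulators, 19 were tested, of which 14 had a lower and 5 a higher mean with Mir195, with a median of -0.12. *Id2*, the inhibitor of E proteins that all innate lymphoid cells need, read 3.20 and 2.88 with EMPTY and 2.69 and 2.63 with Mir195, a log2 fold change of -0.38 (SE 0.16; limma adjusted p = 0.625). *Gata3*, which is required for helper-like innate lymphoid cells and T cells, read -0.03 and -0.21 with EMPTY and -0.45 and -0.39 with Mir195 (log2 fold change -0.30, SE 0.13; limma adjusted p = 0.641). For both genes the groups did not overlap. *Tcf7*, which encodes TCF-1, read 0.76 and 0.21 with EMPTY and -0.19 and 0.24 with Mir195, so its groups overlapped. *Notch1* was higher on both Mir195 arrays, at -1.98 and -2.09 against -2.47 and -2.28, with a limma adjusted p of 0.609.

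Cytokines and cytokine receptors of these cells gave 14 tested of 17, with 10 lower and 4 higher means and a median of -0.17, which became 0.0048 without EMPTY replicate 1. *Il1rl1*, the IL-33 receptor of group 2 cells, had a log2 fold change of -0.75 (SE 0.25; limma adjusted p = 0.557) and *Il18r1*, the IL-18 receptor of NK and type 1 cells, one of -0.46 (SE 0.19; limma adjusted p = 0.622). Both were lower on both Mir195 arrays. *Il2rb*, the IL-2 and IL-15 receptor chain on which NK cells depend, read 1.75 and 1.03 with EMPTY and 0.69 and 1.03 with Mir195. Its groups overlapped, with EMPTY 1 alone high, as for *Tbx21*.

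Of 31 effector and surface genes, 24 were tested, and 21 of these had a lower and 3 a higher mean with Mir195, with a median of -0.29 against 0.0098 over all tested genes. Both Mir195 arrays were lower for 9 of the 24 and higher for 0, against 2796 and 4390 of 19037 tested genes. EMPTY 1 was the highest array for 20 of the 24 (83.3%), against 17.3% of all tested genes. It was also the highest for 64.3% of the cytokine genes, 47.4% of the other regulators and 42.9% of T cell markers. Among clock genes, closest relatives, housekeeping genes and the other marker lists, this share ran from 0% to 33.3%. The median of the effector list lay between -0.57 (EMPTY replicate 2 left out) and -0.009 (EMPTY replicate 1 left out). *Gzma*, which encodes a granzyme of cytotoxic cells, was an exception, with 2.26 on EMPTY 1, 2.80 on EMPTY 2, 1.96 on Mir195 1 and 1.75 on Mir195 2 (log2 fold change -0.67, SE 0.22; limma adjusted p = 0.554). Like *Zbtb16* it was highest on EMPTY 2 and lowest on Mir195 2. *Klre1*, an NK lectin-like receptor, and *Fasl*, the death ligand of cytotoxic cells, had log2 fold changes of -0.60 (limma adjusted p = 0.663) and -0.57 (limma adjusted p = 0.611) and were lower on both Mir195 arrays.

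**Figure D4:**
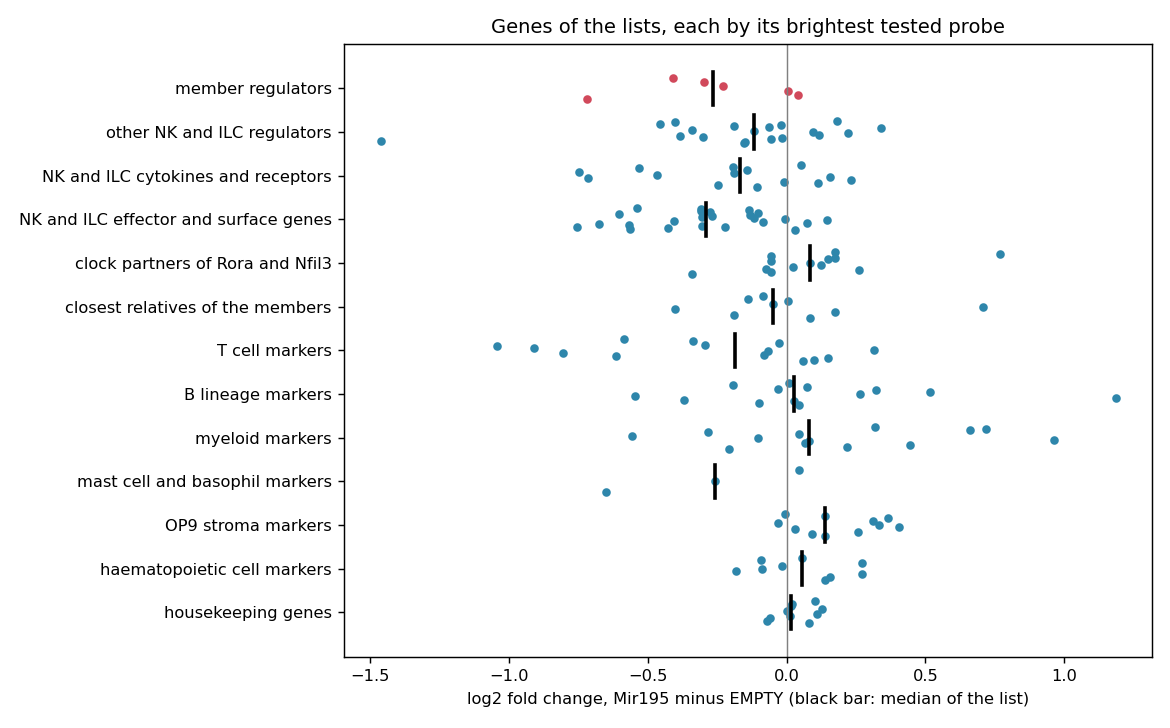
Log2 fold change, Mir195 minus EMPTY (x axis), of every tested gene of each list (y axis), 1 point per gene at its brightest tested probe, with the median of the list as a black bar and the members in red. The medians of the effector genes (-0.29) and of the member genes lie farthest below 0, and that of the OP9 stroma markers (0.14) farthest above.

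The probe whose pattern over the 4 arrays was taken as a reference was that of *Rora*, the member of widest range. Of the probes measured above background on every array, the nearest to it were those of *Arnt2* (root mean square difference 0.041 log2 units), *Asphd2* (0.053) and *Klrc3* (0.056). Within the lists the nearest genes, looked up after the values of *Rora* had been seen, were *Il23r*, the IL-23 receptor of group 3 cells (0.091), *Klrc1*, which encodes the NK receptor NKG2A (0.146), *Cxcr6*, a chemokine receptor of innate lymphoid cells (0.155), and *Ncr1*, which encodes NKp46 (0.190). *Il23r* read -1.97 and -3.24 with EMPTY and -3.28 and -2.22 with Mir195. Like *Rora*, it was high on EMPTY 1 and Mir195 2 and low on the others. EMPTY 1 and Mir195 2 exceeded the other arrays for 13 of the 24 effector genes (54.2%) and 7 of the 14 cytokine genes (50%). This held for 14.9% of all tested genes, 36.8% of other regulators, 27.3% of OP9 stroma markers and 23.1% of clock genes. It held for 22.2% of the closest relatives, 1 of 14 T cell markers (7.14%) and 0% to 11.1% in the remaining marker and housekeeping lists.

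**Figure D5:**
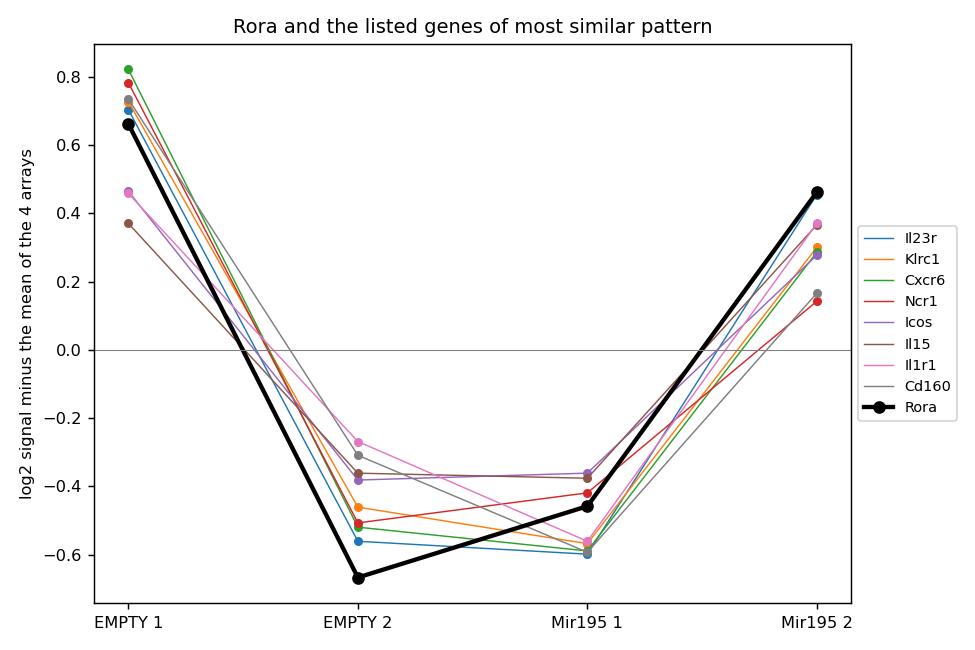
Log2 signal of Rora (black) and of the listed genes nearest to it, each minus its own mean over the 4 arrays (y axis), on each array (x axis), with lines that only join the points of a gene. All of the drawn genes are above their mean on EMPTY 1 and Mir195 2 and below it on EMPTY 2 and Mir195 1.

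The closest relatives of the members did not share one direction. Of 12 such genes 9 were tested, 5 with a lower and 4 with a higher mean and a median of -0.05, and *Tbr1*, a T-box gene of neurons, and *Rorb* were well above background on 0 arrays. *Tox3* was higher on both Mir195 arrays, at -3.66 and -3.98 against -4.71 and -4.34, a log2 fold change of 0.71 (SE 0.19; limma adjusted p = 0.530), opposite in sign to that of *Tox*.

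*Rora* and *Nfil3* also belong to the circadian clock, in which RORα activates and NFIL3 represses through DNA sites shared with REV-ERB and with DBP. Of 16 clock genes 13 were tested, 5 with a lower and 8 with a higher mean, with a median of 0.08 that turned to -0.013 with scaling by the median. *Arntl*, which encodes the core factor BMAL1, was lower on both Mir195 arrays (log2 fold change -0.34, SE 0.14; limma adjusted p = 0.627). *Per3*, a clock repressor, was higher on both (0.77, SE 0.15; limma adjusted p = 0.530). *Nr1d1*, which encodes REV-ERBα, read -2.02 and -2.72 with EMPTY and -2.74 and -2.11 with Mir195, and so was high on the same arrays as *Rora*.

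Promoter windows, from 250 bases before to 50 bases after 1 start site per gene, were given for 4 of the 6 members, *Nfil3*, *Tbx21*, *Eomes* and *Rora*, and for *Nfil3* and *Rora* this start site lies inside the span of the gene given above. The ROR half-site AGGTCA, searched on both strands, was in the window of *Nfil3* and of 0 of the other 3, and in 16.3% of 32851 promoters. The match in *Nfil3* is shown in capitals within its flanks, as the reverse complement on the strand of the gene, and it starts 12 bases before that start site.
Nfil3, chr13:52981034-52981063, GRCm38.p6, minus strand: ggcgctcggaacTGACCTactaacacacat
The T-box half-site AGGTGT and the NFIL3 site TTANGTAA were in 0 of the 4 windows, against 13.7% and 2.32% of all promoters. These matches describe the letters of the windows only.

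Markers of other cells were read beside these results. OP9 stroma markers, 11 tested of 15, had a summed signal of 13.4 and 14.4 times the 75th percentile with EMPTY and of 12.6 and 23.3 with Mir195, with *Pdgfra*, *Lum* and *Dcn* well above background on 0 arrays. They were thus high on Mir195 2, where *Rora* was high, but not on EMPTY 1, where *Rora* was highest. T cell markers, 14 tested of 15, summed to 75.6 and 85.0 with EMPTY and 80.3 and 74.1 with Mir195, with *Themis* well above background on 0 arrays. This sum follows mostly the brightest probes, those of *Lck*, *Cd2* and *Thy1*. Of the 14 tested, 10 had a lower and 4 a higher mean with Mir195, with a median of -0.19, against 47.8% lower over all tested genes. Both Mir195 arrays were lower for 7 and higher for 1, *Cd5* (0.31), against 2796 and 4390 of 19037 tested genes. *Cd8a*, *Cd3g* and *Cd3d*, which encode T cell coreceptor and CD3 chains, had log2 fold changes of -0.91, -0.80 and -0.61 (limma adjusted p from 0.530 to 0.542) and were lower on both Mir195 arrays, as *Tox*, *Zbtb16* and *Gata3* were. General hematopoietic markers summed to 240 to 250 on the 4 arrays, which also follows mostly the brightest probes. *Ptprc* read 2.21 and 1.56 with EMPTY and 1.72 and 2.59 with Mir195, and so was high on the same arrays as *Rora*. It was the 1 gene of the 9 tested there with EMPTY 1 and Mir195 2 above the other arrays. B lineage markers summed to 36.3 to 38.5, a sum set mostly by the brightest probes. Of 13 tested, 5 had a lower and 8 a higher mean, with a median of 0.03 that was -0.071 with scaling by the median. *Cd79b*, a chain of the B cell receptor complex, and *Rag1*, a recombinase of receptor gene rearrangement, were higher on both Mir195 arrays (log2 fold changes 1.18 and 0.52), and *Dntt*, the polymerase that adds bases at the joins, was lower on both (-0.54; limma adjusted p from 0.530 to 0.605 for the 3). Myeloid markers summed to 20.0 to 20.6, with 4 lower and 9 higher means of 13 tested and a median of 0.08 that was -0.016 with scaling by the median. *Ctsg* and *Mpo*, which encode granule proteins of myeloid precursors, were higher on both Mir195 arrays (0.96 and 0.72; limma adjusted p = 0.668 and 0.555), while the groups overlapped for *Lyz2*, the lysozyme gene (0.66; limma adjusted p = 0.749). The part of these cells in the values of the 6 genes was not tested.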

How the data were processed

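RNA of 4 samples, 2 per virus, assigned by their titles, was labeled (100 ng) with Cy3 and hybridized to an Agilent mouse 4×44K v2 array. The deposited files hold the intensity of every spot, less its background, from Agilent Feature Extraction (11.5.1.1 in the submitters' processing notes, 9.1.3.1 in the file header), and the authors' own normalized values, in log2, come in a further table that correlated with r = 0.998 with the values used here. Control and outlier spots were left out (21 to 65 outliers per array, 0 saturated), spots of a probe were averaged as log2 values, and the 75th percentile (signal 902.5 to 1127.4) was subtracted. From 23658 to 24672 probes per array were well above background, and the number of arrays limits the precision.

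A probe entered the test where both arrays of 1 virus or the other were well above background (23802 probes), and 79 of these were dropped for outlier spots. lmFit and eBayes of limma 3.58.1 (R 4.3.3, with the data.table package, 1.17.8) gave two-sided p-values, adjusted by Benjamini-Hochberg. An exact permutation test of 2 against 2 arrays cannot go below 0.333. The fit was tested on simulated data. Symbols came from accessions in GRCm38.p6 for 26055 probes and otherwise from the array.

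Besides every member probe, the text names *Id2*, *Gata3* and, from each list, the genes of largest change among those well above background on all arrays, except a gene that is not reported here. The genes nearest to *Rora* by the root mean square difference of centered values are also named. Further list genes (*Nr1d1*, *Il23r*, *Klrc1*, *Cxcr6*, *Ncr1*, *Cd5*, those below background) were picked after their values were seen. The members, the lists and the tests were chosen with earlier results of these data known. Alternatives covered background correction, scaling, the dim-probe filter, the variance model, the replicate block and each array left out. Mast cell and basophil markers gave 3 tested of 12 genes and summed to 1.10 to 1.39.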

Additional observations from a re-analysis of the deposited data

How the results depend on the processing

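Under all 14 alternatives 0 member probes were called, and the differences of *Zbtb16*, *Tox* and both *Eomes* probes kept their sign (the dimmer *Eomes* probe from -0.76 to -0.014). Over all probes, 3 were called with scaling by the median, 5 with the replicate block and 0 with the pairing of the numbers crossed. The count was 1133 at the threshold of the methods' t-test (0 after Benjamini-Hochberg) and 0 to 900 with each array left out in turn. The crossed pairing was chosen after seeing the data, because of a negative correlation across the tested probes. This correlation was -0.101, between EMPTY 1 minus EMPTY 2 and Mir195 1 minus Mir195 2. The replicate block changed no other call. In the fits with 1 array left out, the lone array of a group is assumed to vary like the other group. The leave-one-out ranges were 3 to 6 member probes lower on both Mir195 arrays, 0 to 2 higher on both, and a median from -0.58 to -0.098. Quantile normalization and the percentile over probes well above background each gave 1 member probe higher on both. The sign of *Rora* turned with quantile normalization (-0.046), scaling by the median (-0.093) and the authors' table (-0.084), and its leave-one-out range was -0.66 to 0.67 (-0.46 without Mir195 replicate 2). That of *Nfil3* turned with scaling by the median (-0.058), with a leave-one-out range of -0.012 to 0.092, and that of *Tbx21* ranged from -0.58 to 0.12. The cause was not tested.

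List medians that changed sign were, with scaling by the median, those of clock partners (-0.013), B lineage (-0.071), myeloid (-0.016), hematopoietic (-0.043) and housekeeping genes (-0.081), and with normexp that of the closest relatives (0.045). Without EMPTY replicate 1 they were cytokine genes (0.0048), relatives (0.034), B lineage (-0.055) and housekeeping genes (-0.0042). Without EMPTY replicate 2 it was B lineage (-0.0039), without Mir195 replicate 1 other regulators (0.033), relatives (0.063) and B lineage (-0.025), and without Mir195 replicate 2 OP9 markers (-0.19). The leave-one-out ranges were -0.27 to 0.033 for other regulators, -0.41 to 0.0048 for cytokine genes, -0.13 to 0.063 for relatives, -0.055 to 0.025 for B lineage, -0.19 to 0.52 for OP9 and -0.0042 to 0.081 for housekeeping genes. Probes with a lower mean made up 47% in the main setting, 51.5% with quantile normalization and 50% in the authors' table.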
